A study of Mus musculus with 28 samples.

Results

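The 2 mature strands of the Mir21a hairpin, miR-21a-5p and miR-21a-3p (mmu-mir-21a-5p and mmu-mir-21a-3p in the tables), were followed in alveolar macrophages (AM) after filtered air (FA) or ozone (O3). They were chosen by name and are 2 of the 607 miRNAs listed in any of the 4 deposited tables, and both are among the 308 listed in every table. The mice were 12 weeks old and fell into 8 groups by genotype, sex and exposure. Co-ex mice carry both human surfactant protein A genes, SP-A1 and SP-A2, as the variants 6A2 and 1A0, and were made on the C57BL/6J SP-A knockout (KO) background, so both genotypes lack mouse SP-A and differ by the human transgenes. Each group breathed FA or O3 for 3 h, and AM were taken by lavage after 4 h of recovery, which gave 28 libraries, 4 in every co-ex group and 3 in every KO group. Females had been synchronized for the estrous cycle. The study's methods name more mice for the miRNA measurements than there are libraries here, but no label ties a library to a single mouse, and the p-values measure the spread between libraries.

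A miRNA hairpin is cut by Drosha and Dicer into a short duplex, and the strand that Argonaute keeps pairs with target mRNAs through its seed, bases 2 to 8. In the mir-21 family the 5p strand is the one usually kept, and the 3p strand is mostly degraded. miR-21 is abundant in macrophages and many other cells, is transcribed in response to STAT3, AP-1 and NF-kB signals, and is known for repressing Pdcd4, an inhibitor of translation initiation.

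The sequences of both arms and of the other mouse miRNAs that carry the number 21 are printed to show which of them could share targets or reads, with the seed in capitals (RefSeq, build GRCm38.p6).

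miR-21a-5p: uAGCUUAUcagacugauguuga
miR-21a-3p: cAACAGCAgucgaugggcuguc
miR-21c: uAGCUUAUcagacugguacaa
miR-21b: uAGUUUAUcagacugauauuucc

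miR-21a-5p lies at chr11:86584120-86584141 and miR-21a-3p at chr11:86584082-86584103, both on the minus strand. Their hairpin of 92 bases (chr11:86584067-86584158) falls inside exon 12 of the host gene Vmp1, in its 3′ UTR by the GENCODE annotation. Among the mature mouse miRNAs of the RefSeq table, the seed of miR-21a-5p was found in 2, itself and miR-21c, and that of miR-21a-3p in 1, itself. miR-21c (chr8:128278188-128278208, minus strand) shares the first 15 bases of miR-21a-5p and differs at 5 of the 21 bases compared. Counted from the 5′ end, with the base of miR-21a-5p first, the differences are A16G, G18A, U19C, U20A and G21A. miR-21b (chr3:29636768-29636790, plus strand) differs at C4U, inside the seed, and at G18A, G21U and A22C.

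Reads assigned to these relatives were few. miR-21c held between 0 and 46 reads per library (median 3) and at most 0.445 reads for each 1000 reads of miR-21a-5p, and miR-21b, listed in 3 of the tables, held at most 15. How reads that match more than one of these names were assigned is not given in the sources used here. miR-21a-5p held between 3090 and 296078 reads per library and was above the minimum value for testing in every library, whereas miR-21a-3p held between 0 and 81.

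The libraries held between 41542 and 2082034 miRNA reads (median 490152). The myeloid markers miR-223-3p and miR-142a (both arms) were present in every library and together took between 0.147% and 1.83% of the reads, and no list used here separates AM from other myeloid cells. Several libraries stood apart in markers of other cells. The muscle list took 8.53% of the reads in KO females O3 replicate 3 against at most 0.831% elsewhere, and the red cell list (miR-451a, miR-486 and miR-144) took 13.7% in co-ex females FA replicate 3 and 11.2% in KO males O3 replicate 3 against at most 6.93% elsewhere. In KO males FA replicate 3, the endothelial miR-126a took 0.718% of the reads against at most 0.0674% in any other library, the mesenchymal list took 2.58% against at most 0.970%, and miR-150-5p of lymphocytes took 0.575%, a level neared only by co-ex females FA replicate 2 at 0.539%. KO males FA replicate 3 also had the lowest miR-21a-5p of its group, and the main results that it moves most are given with and without it. The library codes of 3 KO FA libraries (KO females FA replicates 2 and 3 and KO males FA replicate 3) run from 137 to 140, apart from 118 to 126 for the other KO libraries and 81 to 96 for co-ex. What the codes stand for is not stated.

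Across all 28 libraries miR-21a-5p took a mean of 10.1% of the miRNA reads, the highest mean share among the 308 miRNAs listed in every table. Next came let-7a-5p at 7.72%, let-7f-5p at 6.41% and miR-125a-5p at 5.20%. The let-7 miRNAs are broadly expressed brakes on proliferation, and miR-125a lies in a cluster with let-7e and miR-99b. miR-21a-5p was the most abundant miRNA in 15 of the 28 libraries, and its lowest rank was 10.

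By mean share miR-21a-5p was first in 6 of the 8 groups. It was second to let-7a-5p (14.4%) in KO females after FA, and ranked 3 in co-ex males after FA, behind miR-125a-5p (8.86%) and miR-99b-5p (7.51%). From the lowest group mean to the highest, its share was 6.48% ± 2.74 (SD, n = 4) in co-ex males FA, 7.62% ± 1.73 (SD, n = 4) in co-ex females FA, 8.80% ± 3.42 (SD, n = 4) in co-ex males O3 and 9.96% ± 0.387 (SD, n = 3) in KO females O3. It was 10.6% ± 0.929 (SD, n = 3) in KO females FA, 12.0% ± 3.75 (SD, n = 3) in KO males O3, 13.4% ± 3.89 (SD, n = 4) in co-ex females O3 and 13.4% ± 9.25 (SD, n = 3) in KO males FA. The libraries overlapped in each of the 7 pairs of neighbours in this order. The spread was narrowest in KO females, where the highest library exceeded the lowest by 1.19 times after FA and 1.08 times after O3, and widest in KO males after FA, at 6.73 times.

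**Figure D1:**
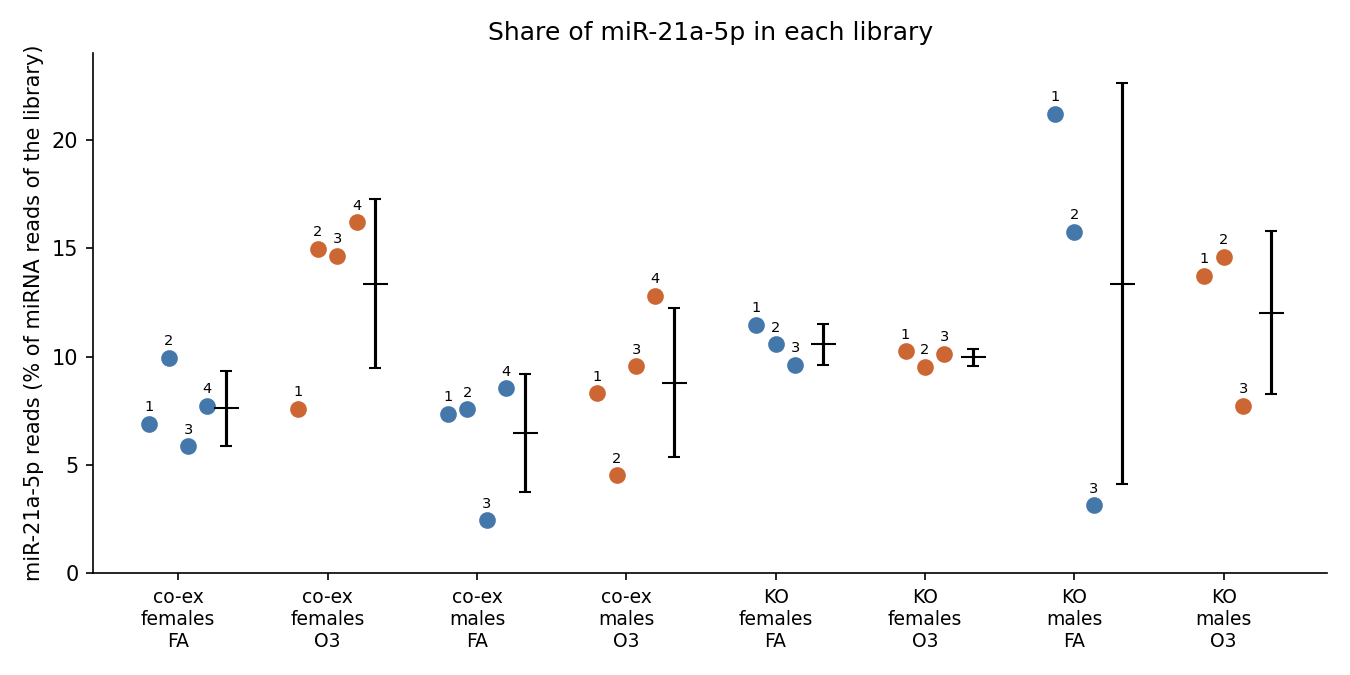
Share of miR-21a-5p in each of the 28 libraries, as a percent of the library's miRNA reads, by genotype, sex and exposure (blue FA, orange O3). Numbers are replicates, and bars show the mean ± SD. The FA and O3 libraries overlap for each genotype and sex, and KO males FA replicate 3 (3.15%) lies far below the other libraries of its group (15.7% and 21.2%).

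In co-ex females, miR-21a-5p was higher after O3 in most libraries, but the difference did not pass the test. The normalized values after FA were 10609.8, 16839, 9591 and 10937 in replicates 1 to 4. After O3 they were 12700.1, 23196, 21526 and 26050.4. Of the O3 libraries, replicates 2, 3 and 4 lay above all FA libraries, and replicate 1, the shallowest library of the study with 41542 reads, lay below FA replicate 2. The mean went from 11994 ± 3280.1 (SD, n = 4) to 20868 ± 5757 (SD, n = 4). The log2 change was 0.78 (standard error 0.46, 95% interval -0.20 to 1.77), which is 1.72-fold, and the adjusted p was 0.778 by limma with Benjamini-Hochberg adjustment over 271 miRNAs. By the same test 0.369% of the miRNAs in this table passed the threshold of 0.1. The median change of all tested miRNAs was -0.16, and 38 miRNAs had a larger change than miR-21a-5p.

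As a share of the library, miR-21a-5p in co-ex females took 6.91%, 9.96%, 5.87% and 7.73% of the reads after FA. After O3 it took 7.60%, 15.0%, 14.7% and 16.2%. The groups overlapped through O3 replicate 1 (4.06% of the miRNAs in this table had no such overlap), whose exact 95% interval (Clopper-Pearson, counting error only) was 7.35% to 7.86%. The mean log2 share was higher by 0.78 after O3, and the exact two-sided permutation test gave p = 0.0857, adjusted over the 4 tables to 0.343. The smallest p this design allows is 0.0286. The summed share of 13 listed epithelial markers (the miR-200 family, miR-34c, miR-449a and others) lay between 1.38% and 3.45% after FA and between 2.70% and 5.13% after O3, and that of the red cell list lay between 1.28% and 13.7% after FA and between 0.293% and 0.428% after O3, with no overlap. The red cell list holds the only miRNA that passed in this table, miR-486b-5p (log2 change -3.19, adjusted p = 0.0341 by limma, named after its values were seen), and FA replicate 3, with 13.7% of red cell reads, had the lowest share of miR-21a-5p. The part of either list in the difference of miR-21a-5p was not tested. In bulk samples, fewer cells of a type and less RNA per cell cannot be told apart.

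In co-ex males the 2 exposures overlapped more widely. The normalized values of miR-21a-5p were 28350.1, 25185, 8419 and 22669.9 after FA. They were 29399, 16660, 35660 and 40777 after O3. The exposures overlapped, as they did for all but 2.88% of the miRNAs tested. FA replicate 3 was the lowest library of the table, and O3 replicate 2 was lower than the other 3 FA libraries. The mean went from 21156 ± 8803 (SD, n = 4) to 30624 ± 10407 (SD, n = 4). The log2 change was 0.60 (standard error 0.44, 95% interval -0.37 to 1.57), 1.51-fold, with an adjusted p of 0.944 by limma. In this table limma called 0% of 312 tested miRNAs, with 11 at an unadjusted p under 0.05, and edgeR and DESeq2 called 0 as well.

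The share of miR-21a-5p in co-ex males was 7.36%, 7.57%, 2.44% and 8.53% after FA. It was 8.31%, 4.53%, 9.56% and 12.8% after O3. The log2 share differed by 0.50 (exact permutation p = 0.4, adjusted 0.533). Without FA replicate 3, the shallowest of the table at 126398 reads, the log2 change of the normalized value was 0.20 and that of the share 0.08. The markers of other cells did not mark this library: its epithelial list took 0.541% of the reads, within the FA range of 0.531% to 3.11%.

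In KO females the level of miR-21a-5p varied least. The normalized values were 64973, 62991 and 50024 after FA. They were 51532, 45552 and 49677 after O3. FA replicates 1 and 2 were above every O3 library, and FA replicate 3 lay among the O3 libraries. The log2 change was -0.27 (standard error 0.19, 95% interval -0.70 to 0.16), and the adjusted p was 0.468 by limma. Of the 319 miRNAs tested in KO females 13.2% passed the threshold, and for 31.3% the exposures were separated with no overlap.

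The share of miR-21a-5p in KO females was 11.5%, 10.6% and 9.62% after FA and 10.2%, 9.52% and 10.1% after O3. The log2 share differed by -0.08 (exact permutation p = 0.4, adjusted 0.533, where 0.1 is the smallest p that 3 libraries against 3 allow). Markers of epithelial cells did change in this table. Of 13 tested, 9 passed the threshold as higher by limma and 0 as lower, where 13.2% of all tested miRNAs passed. The median log2 change of the 13 was 3.56, against 0.06 for all tested miRNAs. The summed share of the list went from at most 0.499% after FA to at least 2.26% after O3. Among the 9 were miR-200a-3p (log2 change 3.62, adjusted p = 0.00523 by limma) and miR-34c-5p (4.62, adjusted p = 0.00816 by limma), a marker of multiciliated cells. The muscle list reached 8.53% of the reads in O3 replicate 3, whose miR-21a-5p share of 10.1% lay between those of the other O3 libraries.

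KO males held both the highest share of miR-21a-5p of all libraries and the lowest share among the KO libraries. The normalized values were 300816, 209202 and 46139 after FA. They were 161500, 168244 and 94507 after O3. All O3 libraries lay between FA replicates 2 and 3, where 12.7% of the miRNAs tested had no overlap. The log2 change was -0.06 (standard error 0.69, 95% interval -1.68 to 1.56), and the adjusted p was 0.993 by limma, in a table where 0.909% of 440 tested miRNAs passed. The sign depended on the scaling, with 0.19 when libraries were scaled to their totals, which moved the median of all tested miRNAs by 0.24, and 0.030 with TMM factors.

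This value rests on FA replicate 3. Without it the log2 change was -0.87 (standard error 0.30, 95% interval -1.52 to -0.23) and the adjusted p was 0.0746 by limma. The share of all tested miRNAs past the threshold went up to 18% at the same time, 86 of 479. Leaving out the lowest library of a group raises that group's mean by construction. The share of miR-21a-5p was 21.2%, 15.7% and 3.15% after FA and 13.7%, 14.6% and 7.72% after O3. The difference in log2 share was 0.19 (exact permutation p = 1). Without FA replicate 3 it was -0.66 (exact permutation p = 0.2, the smallest that so few libraries allow).

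In KO males the epithelial list overlapped between the exposures through FA replicate 3. It took 0.258% and 0.312% of the reads in FA replicates 1 and 2, 3.17% in FA replicate 3, and between 2.37% and 3.02% after O3. FA replicate 3 was the highest of these libraries, so setting it aside separates the exposures by construction. None of the 14 members of the list passed the test by limma. In O3 replicate 3, the O3 library with the lowest miR-21a-5p share, the red cell list took 11.2% of the reads, against 0.541% and 3.50% in the other O3 libraries. The part of these cells in the differences of miR-21a-5p was not tested.

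**Figure D2:**
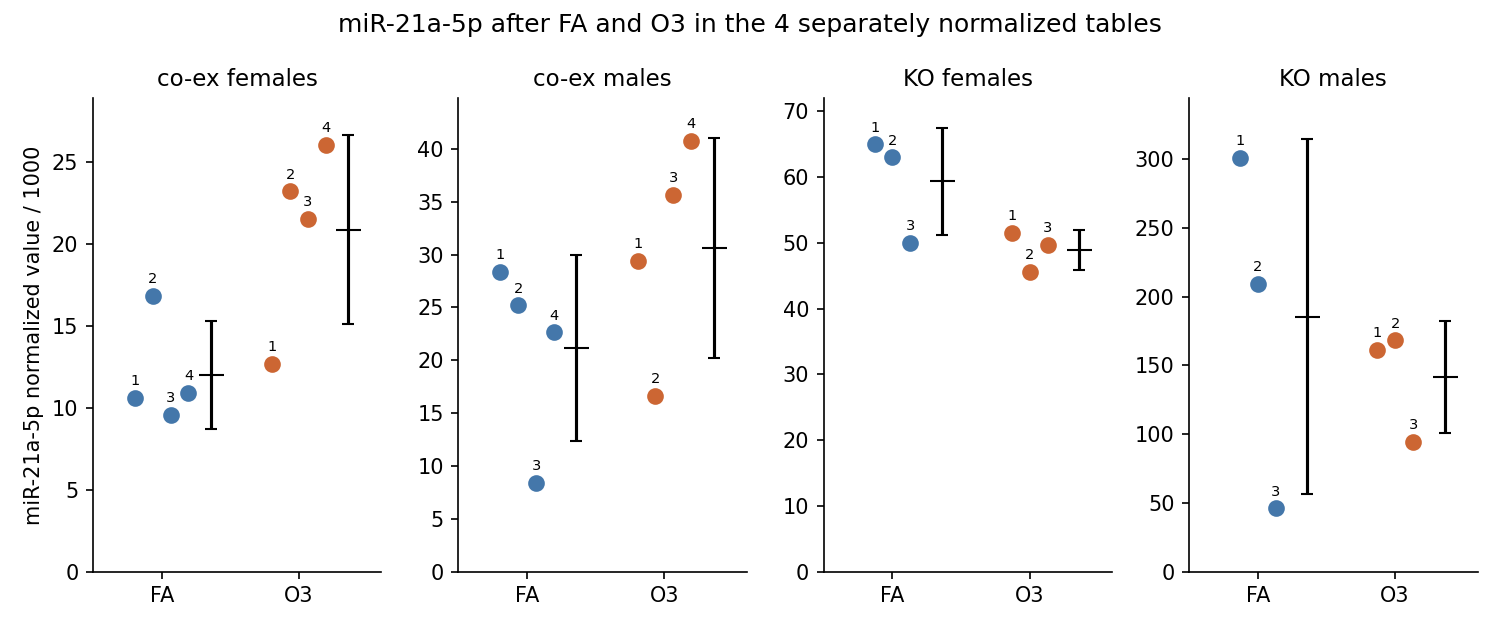
Normalized values of miR-21a-5p, divided by 1000, by exposure in the 4 tables, with replicate numbers and the mean ± SD. Each table was normalized on its own, so the vertical axes start at 0 but are not comparable between panels. After O3, replicates 2 to 4 of co-ex females lie above the FA libraries, and in KO males the O3 libraries lie between FA replicates 2 and 3.

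With both sexes of a genotype in one fit, miR-21a-5p was higher on average after O3 in co-ex and lower in KO, where scaling to library totals gave 0.053, and neither change passed the test. In co-ex the common log2 change was 0.69 (standard error 0.28, 95% interval 0.10 to 1.28), 1.61-fold. Its unadjusted p of 0.0245 was the seventh smallest of 249, and the adjusted p was 0.682 by limma. No miRNA passed in this fit (0%), with 10 at an unadjusted p under 0.05 and 0 called by edgeR or DESeq2. In KO the common log2 change was -0.16 (standard error 0.37, 95% interval -0.98 to 0.65), with an adjusted p of 0.811 by limma, where 13.3% of 309 miRNAs passed. Without KO males FA replicate 3 it was -0.54 with an adjusted p of 0.0701 by limma, and 29.8% of miRNAs passed. Without all 3 KO FA libraries whose codes lie apart, an alternative chosen after seeing the data, it was -0.70 (adjusted p = 0.0752 by limma, 24.2% passing).

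The difference of the change between genotypes was tested directly. In females the change after O3 was higher in co-ex than in KO by 1.06 on the log2 scale (standard error 0.44, 95% interval 0.12 to 1.99). The unadjusted p was 0.0296 and the adjusted p 0.198 by limma, where 8.71% of 241 miRNAs passed. The median difference of all tested miRNAs was -0.48. The interval reached below 0 under other scalings. Library totals gave 0.86 (95% interval -0.07 to 1.78), and TMM factors gave 1.04 (95% interval -0.07 to 2.15). DESeq2 on the recovered reads gave 1.31 with an adjusted p of 0.00524 (14.7% of its 238 miRNAs passed), and edgeR gave 0.98 with an adjusted p of 0.286. The limma call also turned on 2 co-ex libraries: without FA replicate 2 the difference was 1.23 (adjusted p = 0.0725 by limma, 10.1% of miRNAs passing), and without O3 replicate 1 it was 1.28 (adjusted p = 0.0552 by limma, 11.6% passing). They are the highest FA and the lowest O3 library of co-ex females, so leaving out either raises the difference by construction.

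In males the difference between genotypes was 0.66 (standard error 0.83, adjusted p = 0.949 by limma). None of 305 miRNAs (0%) passed there by limma, edgeR or DESeq2, with 6 at an unadjusted p under 0.05 by limma. Over both sexes the difference was 0.86 (standard error 0.48, 95% interval -0.13 to 1.84, adjusted p = 0.413 by limma), where 4.35% of 230 miRNAs passed. Without KO males FA replicate 3 it was 1.26 (adjusted p = 0.0338 by limma, 14.3% passing), and in males alone 1.47 (adjusted p = 0.513 by limma). The estimate was higher in co-ex than in KO with and without that library.

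No difference of the change between the sexes was detected. The change in males less that in females was -0.19 in co-ex (95% interval -1.41 to 1.03, adjusted p = 0.981 by limma) and 0.21 in KO (95% interval -1.49 to 1.91, adjusted p = 0.951 by limma). Without KO males FA replicate 3 the KO difference was -0.60 (95% interval -1.39 to 0.18, adjusted p = 0.853 by limma). These intervals are wide, and none of the 249 and 309 miRNAs (0% and 0%) passed by limma, with 8 and 17 at an unadjusted p under 0.05. DESeq2 called 1 and 2, and edgeR 1 and 0.

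**Figure D3:**
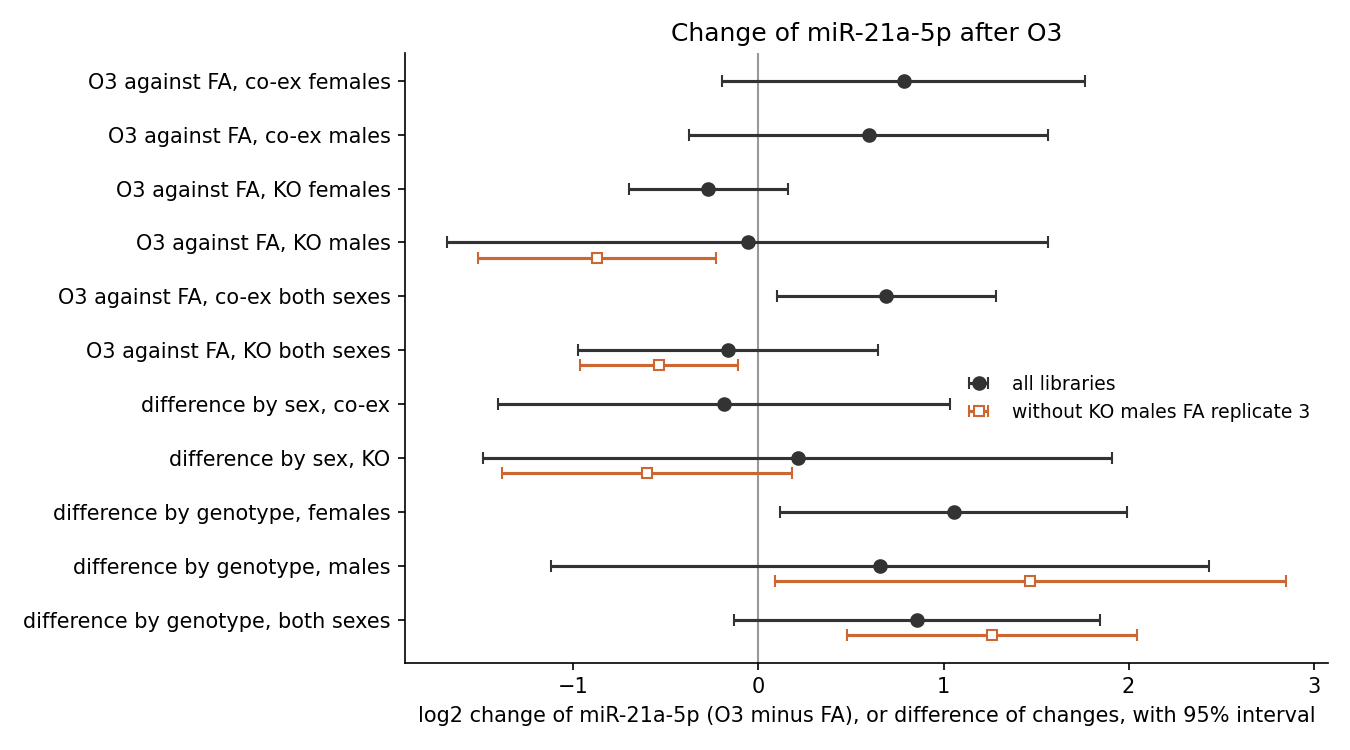
Log2 change of miR-21a-5p after O3 in each table and genotype, and the differences of these changes by sex (males minus females) and by genotype (co-ex minus KO), with 95% intervals from limma. Squares show fits without KO males FA replicate 3. The point estimates lie above 0 in co-ex (0.60 to 0.78) and at or below it in KO (-0.27 to -0.06). The KO male value was above 0 under library totals or TMM. The interval of every single genotype and sex crosses 0. Without that library the KO change is -0.87 in males and -0.54 in both sexes.

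Within one exposure, the level of miR-21a-5p was compared between sexes and genotypes on the recovered reads by edgeR. Males less females differed by -0.24 on the log2 scale in co-ex FA (adjusted p = 0.774 by edgeR), -0.43 in co-ex O3 (adjusted p = 0.549 by edgeR), 0.38 in KO FA (adjusted p = 0.874 by edgeR) and 0.38 in KO O3 (adjusted p = 0.688 by edgeR). In these comparisons 13.8%, 7.79%, 0% and 0% of all miRNAs passed, with 23 and 28 at an unadjusted p under 0.05 in the KO ones, where DESeq2 called 13 and 5. Without KO males FA replicate 3 the difference in KO FA was 0.78 (adjusted p = 0.411 by edgeR).

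Between genotypes, co-ex less KO was -0.83 in females FA (adjusted p = 0.179 by edgeR), 0.31 in females O3 (adjusted p = 0.702 by edgeR), -1.67 in males FA (unadjusted p = 0.0359, adjusted p = 0.217 by edgeR) and -0.50 in males O3 (adjusted p = 0.385 by edgeR). Of all miRNAs, 29.1%, 10%, 2.45% and 17% passed. With library totals in place of TMM factors the differences after FA were smaller, at -0.47 in females (adjusted p = 0.362 by edgeR) and -1.04 in males (adjusted p = 0.393 by edgeR). In females FA the TMM difference was -1.06 without co-ex FA replicate 2 (adjusted p = 0.00644 by edgeR, 39% of miRNAs passing), and in males FA it was -2.15 without KO FA replicate 3 (adjusted p = 0.049 by edgeR, 13.9% passing). These are the highest library of that co-ex group and the lowest of that KO group, so leaving them out widens the difference by construction. The genotypes also differ in their runs of library codes, and genotype and library handling cannot be told apart here.

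The passenger arm, miR-21a-3p, was close to the limit of detection. In co-ex females it held 0, 7, 4 and 0 reads after FA and 0, 0, 2 and 25 after O3. In co-ex males it held 0, 25, 1 and 0 reads after FA and 6, 4, 56 and 3 after O3. It did not pass the filter on low values in either co-ex table and was not tested there. In KO females the reads were 47, 0 and 74 after FA and 9, 0 and 34 after O3, and in KO males 78, 81 and 1 after FA and 54, 26 and 34 after O3.

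Where it was tested, miR-21a-3p showed no detectable difference. The log2 change was -0.87 in KO females (standard error 1.86, adjusted p = 0.82 by limma), 0.57 in KO males (standard error 1.32, adjusted p = 0.967 by limma) and -0.15 in both (standard error 1.20, adjusted p = 0.942 by limma). Its 95% interval in KO females ran from -5.14 to 3.39, so changes of many-fold either way are within the error. In KO males the sign followed 1 library, since without FA replicate 3, with its single read, the change was -1.04 (adjusted p = 0.254 by limma), and edgeR and DESeq2 on all libraries gave -0.49 and -0.50. In both KO sexes it was -0.95 without that library (adjusted p = 0.585 by limma).

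Of the reads of both arms, miR-21a-3p made up 571 of 1960375 over all libraries, 0.0291%, or 1 read for every 3432 of miR-21a-5p. By library its percent ran from 0 (in 8 libraries) to 0.113% in co-ex males O3 replicate 3. The means after FA and O3 were 0.0218% and 0.0162% in co-ex females, 0.0173% and 0.0408% in co-ex males, 0.048% and 0.0225% in KO females, and 0.0194% and 0.0257% in KO males. The differences, O3 less FA, of -0.0056, 0.023, -0.025 and 0.0063 percentage points had exact two-sided permutation p-values of 0.714, 0.571, 0.7 and 0.6, and adjusted p = 0.714 for each. Without KO males FA replicate 3 the KO male difference was -0.0018 points (exact permutation p = 1). FA and O3 libraries overlapped in every table.

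Libraries of one group differed in the arm ratio by more than counting error. In KO females FA, replicate 2 had 0 reads of miR-21a-3p beside 86010 of miR-21a-5p (exact 95% interval up to 0.00429%). Replicate 3 had 74 beside 71632, which is 0.103% (exact 95% interval 0.081% to 0.13%). In co-ex males O3, replicate 3 at 0.113% (0.0854% to 0.147%) lay above replicate 1 at 0.0187% (0.00685% to 0.0406%). PCR reads without molecular identifiers are not independent molecules, so these intervals cover counting error only.

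**Figure D4:**
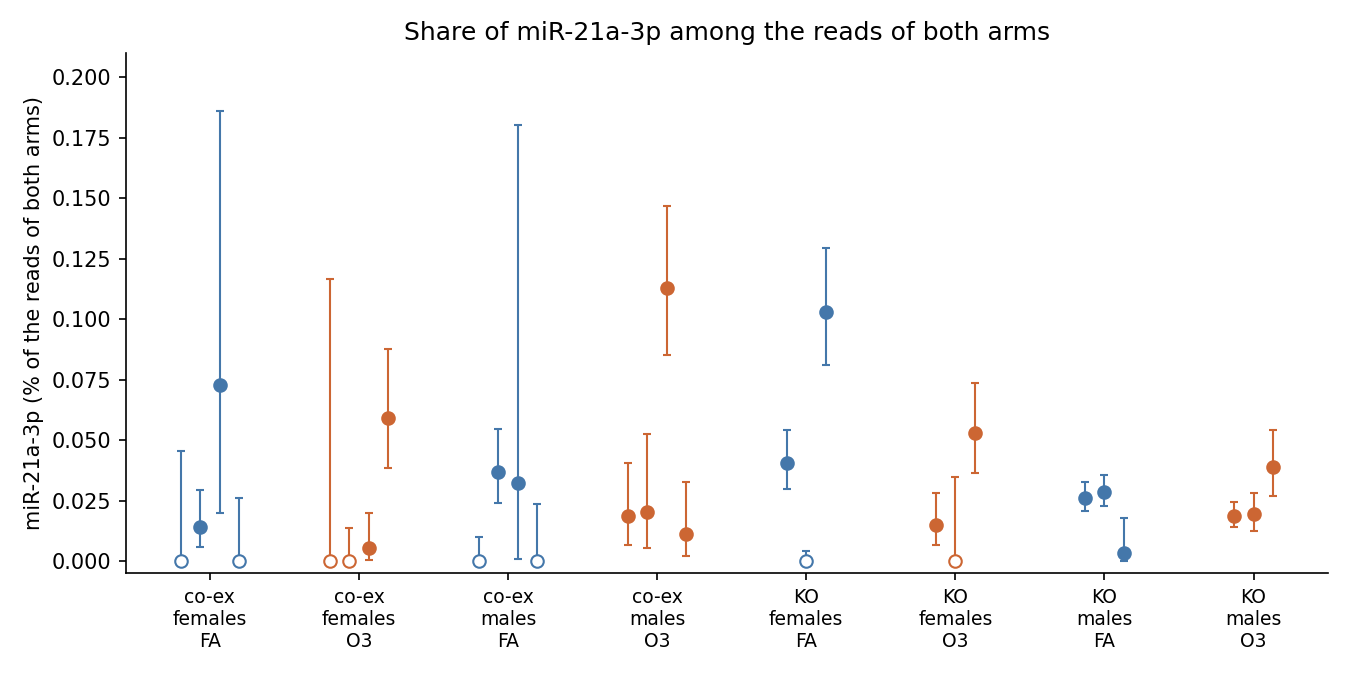
Share of miR-21a-3p among the reads of both arms in each library (percent), with exact 95% Clopper-Pearson intervals that cover counting error only, by group (blue FA, orange O3). Open circles mark the 8 libraries with 0 reads of the 3p arm. Shares stay at or below 0.113%, and libraries of one group differ by more than their intervals, as in KO females FA.

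Among hairpins with both arms listed in every table, miR-21a had the most one-sided pair. There were 59 such hairpins, 31 with the 5p arm more abundant, and the less abundant arm made up a median of 5.93% of their reads. miR-21a, at 0.0291%, had the lowest percent of all 59. Next were mir-146b at 0.133%, let-7b at 0.325% and mir-191 at 0.337%, and mir-125a had 0.528%. Less abundant arms of scarce hairpins need reads to be listed at all. The comparison was repeated for the 35 hairpins with over 1000 reads when each library is scaled to a total of 1000000 (RPM). Their median was 2.67%, and miR-21a was again the lowest. The repeat still left out hairpins with an arm not listed in every table, so it cannot rank miR-21a against those.

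**Figure D5:**
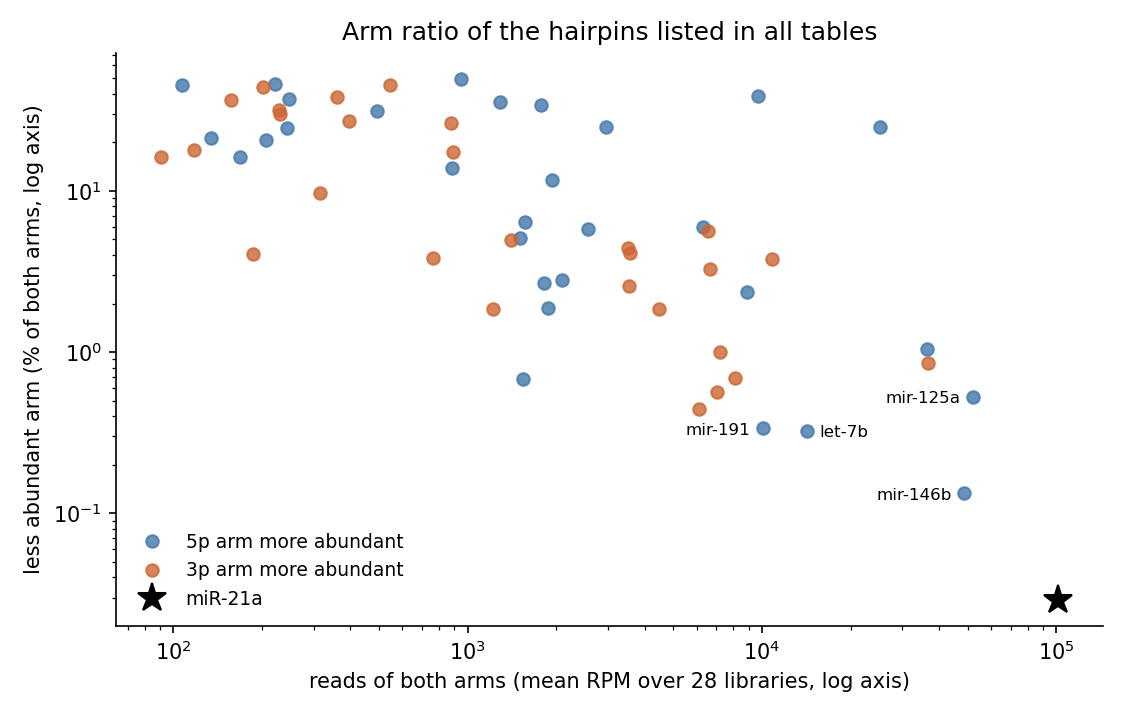
Percent of the less abundant arm (log axis) against the reads of both arms (mean RPM, log axis) for the 59 hairpins with both arms listed in every table. The star marks miR-21a, which has the lowest percent (0.0291%) and the highest abundance.

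The level of miR-21a-5p varied between libraries together with some other abundant miRNAs. With the mean of each of the 8 groups subtracted, the log2 RPM of 148 miRNAs with reads in every library were set beside those of miR-21a-5p over the 28 libraries. The most alike by Spearman's rho were miR-24-2-5p (0.84), miR-29a-3p (0.78), miR-1298-5p (0.73), miR-532-5p (0.71) and miR-30e-5p (0.69), and the median of all was 0.02. miR-29a is known for repressing collagen mRNAs. With only the 4 table means subtracted, so that exposure could add to the likeness, they were miR-101a-3p (0.70), miR-340-5p (0.68), miR-24-2-5p (0.65), miR-101b-3p (0.64) and miR-16-5p (0.63), with a median of -0.08. miR-24-2-5p was among the 5 by both measures. Values of one library share its depth and its total, so these are descriptions without a test.

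A list of miRNAs known to answer inflammatory signals gave the setting for miR-21a. The list of 15, which includes both arms of miR-21a, held miR-155-5p, the Toll-like receptor-induced miRNA, miR-146a-5p and miR-146b-5p, which restrain NF-kB signalling, and miR-132-3p, miR-221-3p and miR-222-3p. In co-ex females 0 of the 10 tested passed, against 0.369% of all tested miRNAs (median log2 change -0.18 against -0.16 for all miRNAs), and in co-ex males 0 of 10, against 0% (0.22 against 0.18). In KO females 1 of 13 passed, no more than the 13.2% of all tested miRNAs there. It was let-7e-5p, which fell by 1.55 on the log2 scale (adjusted p = 0.0157 by limma), and the median was -0.46 against 0.06. In KO males 0 of 15 passed, against 0.909% (-0.06 against -0.04). That median of -0.06 is the change of miR-21a-5p itself, so it says nothing of the other members. miR-155-5p had log2 changes of 1.20 (standard error 0.88) in co-ex females, 0.46 (0.50) in co-ex males, 0.02 (0.55) in KO females and -0.61 (0.84) in KO males, and miR-146a-5p of -0.51 (0.73), 0.21 (0.49), -0.46 (0.44) and -0.97 (0.94). miR-146b-5p had -1.23 (0.51), 0.23 (0.37), -0.75 (0.27) and 0.77 (1.26) in the same order. None of these passed, and those of miR-146b-5p in co-ex females and KO females lay over 2 standard errors below 0.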

How the data were processed

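Small RNA libraries of AM RNA were sequenced, and the authors trimmed the reads and counted them per miRNA with Chimira (CASAVA, edgeR and TCC are also named; the versions of Chimira and edgeR and the genome build are not given in the sources used here). The authors deposited 4 tables, one per genotype and sex, of a normalized signal that, from its values, is the counts of each library divided by a size factor. In each of the 28 libraries 100% of the values were whole multiples of one step (tolerance 0.01 reads), so reads were recovered, and for 5 libraries fewer low values were at hand to show it. The tables also hold the authors' fold changes and p-values, which were not used.

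O3 was compared with FA by limma 3.58.1 (trended prior, R 4.3.3) on log2(value + 1), where a miRNA was tested if its value reached 5 in at least the number of libraries of the smaller group. Adjustment was by Benjamini-Hochberg over all tested miRNAs with the study's threshold of 0.1. The +1 understates changes of low values. Groups across tables were compared by edgeR 4.0.16 (quasi-likelihood, TMM) on recovered reads, and DESeq2 1.42.0 was an alternative. Shares and arm percents were compared by exact two-sided permutation tests (scipy 1.17.1), adjusted over the 4 tables and judged at 0.05. In 36 pairs of replicates the variance was at least 21.8 times that of counting. Scripts were tested on simulated data.

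The miRNAs named were both arms, those with the same number or seed, the neighbours by mean share, the 5 most alike by each of 2 measures over the 28 libraries (at least 1 read in each and a mean of 100 after scaling each library to 1000000 reads), and examples from hairpins and marker lists. let-7e-5p is named as the 1 member of its list that passed. The members and lists were chosen with earlier results of these data known.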

Additional observations from a re-analysis of the deposited data

Results flagged for a closer look

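For miR-21a-3p, 1 library of a group of 4 lay far from the rest in 2 groups, by the gap to the nearest library over the range of the group (Dixon's test). In co-ex females O3, replicate 4 had a normalized value of 15.5 and 0.0594% of the reads of both arms, where the other libraries had at most 2 reads. In co-ex males O3, replicate 3 had a value of 40.3 and 0.113%, where the other libraries had at most 6 reads. In each of these libraries both values come from the same few reads, so they are not separate observations. Chance flags about 1 in 20 groups of normally distributed values, which counts this low are not. The values of miR-21a-5p gave no flag, and groups of 3 libraries were not tested, so KO males FA replicate 3 could not be.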

How the results depend on the processing

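Of 169 alternatives other than leaving out a library, 156 were counted as unchanged. That meant the same direction and side of the threshold, except for arm percents over the summed reads of a group. Those were counted by a shift smaller than the larger group SD, whatever the direction. Over summed reads the arm percent went from 0.0144% after FA to 0.0248% after O3 in co-ex females, opposite to the means. In KO males it went from 0.0263% to 0.0224%, also opposite to the means. Some of the 169 could not have changed a call. The stricter threshold of 0.05 reused fits in which miR-21a had not passed 0.1. Permutation tests were judged at an adjusted p of 0.05, which none of them could reach. Those of 3 against 3 libraries cannot go below 0.1, and those of 4 against 4 cannot go below 0.0286 before adjustment over the 4 tables. Total-count scaling shifted the median change of all tested miRNAs by 0.20 in KO females and 0.24 in KO males, and with it miR-21a-5p in KO males went to 0.19 and in both KO sexes to 0.053, while TMM gave 0.030 in KO males. DESeq2 turned the difference by sex in KO to -0.10, and the test without a filter on low counts turned males against females in co-ex FA to 0.10. As a difference of mean percent, the share in KO males differed by -1.34 points. DESeq2 gave the genotype difference in females as 1.31, past the threshold. For miR-21a-3p in KO males edgeR and DESeq2 gave -0.49 and -0.50. The cause was not tested for any of these.

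The 3 KO FA libraries whose codes lie apart were left out in an alternative chosen after seeing the data. In KO males miR-21a-5p was then -0.87 (adjusted p = 0.0746 by limma, with 18% of all tested miRNAs passing) and miR-21a-3p -1.04. In KO females this leaves 1 FA library, assumed to vary like the others, and the change was -0.41. In both KO sexes it was -0.70. The genotype difference was 1.20 in females, 1.47 in males and 1.33 over both sexes.

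With 1 library left out at a time, the changes of miR-21a-5p ranged from 0.66 to 1.01 in co-ex females, 0.20 to 0.86 in co-ex males, -0.39 to -0.20 in KO females, -0.87 to 0.48 in KO males, 0.51 to 0.82 in both co-ex sexes and -0.54 to 0.063 in both KO sexes. The differences by sex ranged from -0.59 to 0.079 in co-ex and -0.60 to 0.75 in KO. Those by genotype ranged from 0.93 to 1.28 in females, 0.12 to 1.47 in males and 0.59 to 1.26 in both. Males against females ranged from -0.45 to 0.11 (co-ex FA), -0.76 to -0.32 (co-ex O3), -0.027 to 0.78 (KO FA) and 0.27 to 0.60 (KO O3). Co-ex against KO ranged from -1.06 to -0.73 (females FA), 0.08 to 0.53 (females O3), -2.15 to -1.02 (males FA) and -0.81 to -0.24 (males O3). The log2 share ranged from 0.66 to 1.03, 0.08 to 0.78, -0.15 to -0.018 and -0.66 to 0.72 in co-ex females, co-ex males, KO females and KO males, and the arm percent from -0.020 to 0.011, -0.00057 to 0.033, -0.049 to 0.0021 and -0.0018 to 0.011 points. For miR-21a-3p the changes ranged from -2.62 to 0.44 in KO females, -1.04 to 1.47 in KO males and -0.95 to 0.51 in both.

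A fit with the replicate number as a block changed no call of miR-21a, and over all miRNAs it called 1, 0, 37 and 1 in co-ex females, co-ex males, KO females and KO males against 1, 0, 42 and 4 without it: miR-21a-5p in co-ex females kept its change of 0.78, with an adjusted p of 0.913 by limma, and the genotype difference in females its 1.06 (adjusted p = 0.292 by limma). Correlations of same-numbered libraries ran from -0.28 to 0.23. They were not set beside those of differently numbered libraries, so they cannot decide whether the numbers pair the libraries. With 3 or 4 libraries a group, permutation tests cannot go below 0.1 or 0.0286, and miR-21a-3p is limited by its reads, 0 to 81 per library.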
